A study of Mus musculus with 24 samples.

Results

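The circadian clock genes described here were Clock, Arntl, Per1, Per2, Per3, Cry1, Cry2, Nr1d1, Nr1d2 and Dbp. They are 10 of 21755 protein-coding genes annotated on the 19 autosomes and chromosome X of the mouse. They were chosen by name, as textbook members of the clock, but with earlier results of these data known. At each gene, the peaks of trimethylation of histone H3 on lysine 4 (H3K4me3, a modification found at active promoters) were examined for whether a peak came within 250 bp of an annotated transcription start site (TSS), which promoter carried it, how wide it was and how far it reached on both sides of the TSS. The series held 24 ChIP-seq samples in 12 groups, of which 3 H3K4me3 replicates were analysed as a single list of 13451 consensus peaks. They came from C127 cells, a mouse mammary epithelial line grown in DMEM with serum and crosslinked with formaldehyde. The other 21 samples (the matched input, ChIP of CFP1, KDM2B and RNA polymerase II, ChIP of GFP in lines with GFP or GFP-tagged CFP1 and its mutants, and a further input) were not analysed here. Because the list holds positions and no heights, no value below has a spread between replicates, nothing was tested, and the read depth is unknown. Of 12 epithelial marker genes, among them Epcam, Cdh1, Krt8, Krt18, Krt5 and Krt14, 0 had a peak. Of 8 mesenchymal markers, 7 had one, among them Vim and Fn1, and Col1a1 did not. The share over all protein-coding genes was 49.4%. These markers were chosen with earlier results of these data known. The epithelial name is used below only as the label gives it. Synchronisation of the cells and the time of day at harvest are not given in the sources used here.

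In the mammalian clock, CLOCK and BMAL1 (the product of Arntl) bind E-boxes together and activate Per, Cry, Nr1d1, Nr1d2 and Dbp, and the PER and CRY proteins then repress CLOCK and BMAL1. In a second loop, the REV-ERB repressors made from Nr1d1 and Nr1d2 and the ROR activators compete for ROR elements (ROREs), among others at Arntl. DBP, a PAR bZIP activator, works through D-boxes, which also occur at Per genes. The loops run in most tissues and in many cultured lines, and cells that have not been synchronised drift out of phase with one another.

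The promoters in which these elements were found are shown first, as the 250 bases before the TSS used, 5′ to 3′ on the strand of the gene, read from the GRCm38.p6 reference (mm10, the build of the peaks). Capitals mark an E-box (CACGTG), an E'-box (CACGTT, or AACGTG where it lies on the other strand), a D-box (TTATGTAA) or a RORE core (TAGGTCA). Every one of these windows lay wholly inside the H3K4me3 peak of its gene.
Per1, chr11:69098698-69098947, plus strand: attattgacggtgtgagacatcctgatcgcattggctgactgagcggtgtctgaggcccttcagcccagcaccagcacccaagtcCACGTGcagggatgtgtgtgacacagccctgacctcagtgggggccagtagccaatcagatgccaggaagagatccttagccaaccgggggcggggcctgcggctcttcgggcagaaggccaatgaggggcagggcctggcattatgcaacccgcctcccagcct
Per2, chr1:91459325-91459574, minus strand: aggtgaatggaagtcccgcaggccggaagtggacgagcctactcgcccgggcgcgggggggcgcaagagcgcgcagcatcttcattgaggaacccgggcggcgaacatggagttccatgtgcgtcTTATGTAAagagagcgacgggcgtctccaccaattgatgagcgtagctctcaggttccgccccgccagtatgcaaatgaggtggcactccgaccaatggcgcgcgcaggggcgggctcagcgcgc
Per3, chr4:151044666-151044915, minus strand: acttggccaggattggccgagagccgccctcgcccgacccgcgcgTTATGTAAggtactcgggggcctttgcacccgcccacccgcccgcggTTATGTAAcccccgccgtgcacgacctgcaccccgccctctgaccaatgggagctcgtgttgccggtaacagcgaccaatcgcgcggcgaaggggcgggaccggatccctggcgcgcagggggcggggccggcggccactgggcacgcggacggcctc
Cry1, chr10:85185065-85185314, minus strand: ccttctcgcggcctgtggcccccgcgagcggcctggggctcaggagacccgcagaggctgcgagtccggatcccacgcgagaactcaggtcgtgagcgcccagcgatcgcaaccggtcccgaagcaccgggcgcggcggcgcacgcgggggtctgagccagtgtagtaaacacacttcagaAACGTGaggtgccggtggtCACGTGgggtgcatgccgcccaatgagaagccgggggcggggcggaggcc
Cry2, chr2:92434044-92434293, minus strand: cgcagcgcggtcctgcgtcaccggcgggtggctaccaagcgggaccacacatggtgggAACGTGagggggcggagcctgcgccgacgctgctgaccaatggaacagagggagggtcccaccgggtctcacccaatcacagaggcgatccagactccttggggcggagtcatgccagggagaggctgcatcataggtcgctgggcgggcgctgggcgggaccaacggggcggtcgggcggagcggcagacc
Nr1d1, chr11:98775334-98775583, minus strand: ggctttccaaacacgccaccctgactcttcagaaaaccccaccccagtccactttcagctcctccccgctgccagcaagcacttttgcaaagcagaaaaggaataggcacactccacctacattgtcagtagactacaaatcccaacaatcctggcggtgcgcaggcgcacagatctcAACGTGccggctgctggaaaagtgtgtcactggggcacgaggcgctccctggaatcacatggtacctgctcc
Dbp, chr7:45704838-45705087, plus strand: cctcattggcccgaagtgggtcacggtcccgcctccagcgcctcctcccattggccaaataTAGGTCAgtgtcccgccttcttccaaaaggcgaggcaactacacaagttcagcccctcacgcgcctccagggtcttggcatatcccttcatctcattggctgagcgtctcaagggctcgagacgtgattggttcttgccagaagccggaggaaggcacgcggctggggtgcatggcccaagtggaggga

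The promoters of Per1 and Cry1 held an E-box, those of Cry1, Cry2 and Nr1d1 an E'-box, those of Per2 and Per3 a D-box (Per3 has 2 of them), and that of Dbp a RORE core. The same windows of Clock, Arntl and Nr1d2 held none of these letters and are not printed. In 3 genes, 2 or more E-boxes lay close together in an intron under the peak, and these stretches are shown because they hold 7 of the 18 E-boxes found under the peaks.
Nr1d1 intron 1, chr11:98773844-98773894, minus strand: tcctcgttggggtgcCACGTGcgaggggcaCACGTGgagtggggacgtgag
Nr1d2 intron 1, chr14:18238510-18238693, minus strand: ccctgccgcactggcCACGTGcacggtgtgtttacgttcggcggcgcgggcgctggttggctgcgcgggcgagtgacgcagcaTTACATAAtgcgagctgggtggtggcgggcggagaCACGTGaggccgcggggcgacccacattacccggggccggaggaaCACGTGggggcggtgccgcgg
Dbp intron 2, chr7:45707697-45707845, plus strand: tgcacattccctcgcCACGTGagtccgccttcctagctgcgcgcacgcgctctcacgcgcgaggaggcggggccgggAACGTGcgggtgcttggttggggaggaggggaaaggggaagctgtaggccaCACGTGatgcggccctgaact
The stretch in Nr1d2 also holds a D-box on the other strand, and that in Dbp an E'-box between its 2 E-boxes.

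All 10 clock genes had a peak within 250 bp of a TSS. Of all 21755 protein-coding genes, 49.4% had one, and of those whose TSS lay in CpG-rich sequence (within 250 bp on both sides, a GC content of 50% or more and CpGs at 0.6 or more of the number that the base composition predicts), 81.1% did. The TSS of 8 of the 10 genes was CpG-rich by this measure, the exceptions being Per1 and Nr1d1. In each gene the peak covered a TSS and did not just come near it, as the map of the peaks shows. A presence at all 10 promoters is therefore to be read against a background in which most CpG-rich promoters were marked.

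**Figure D1:**
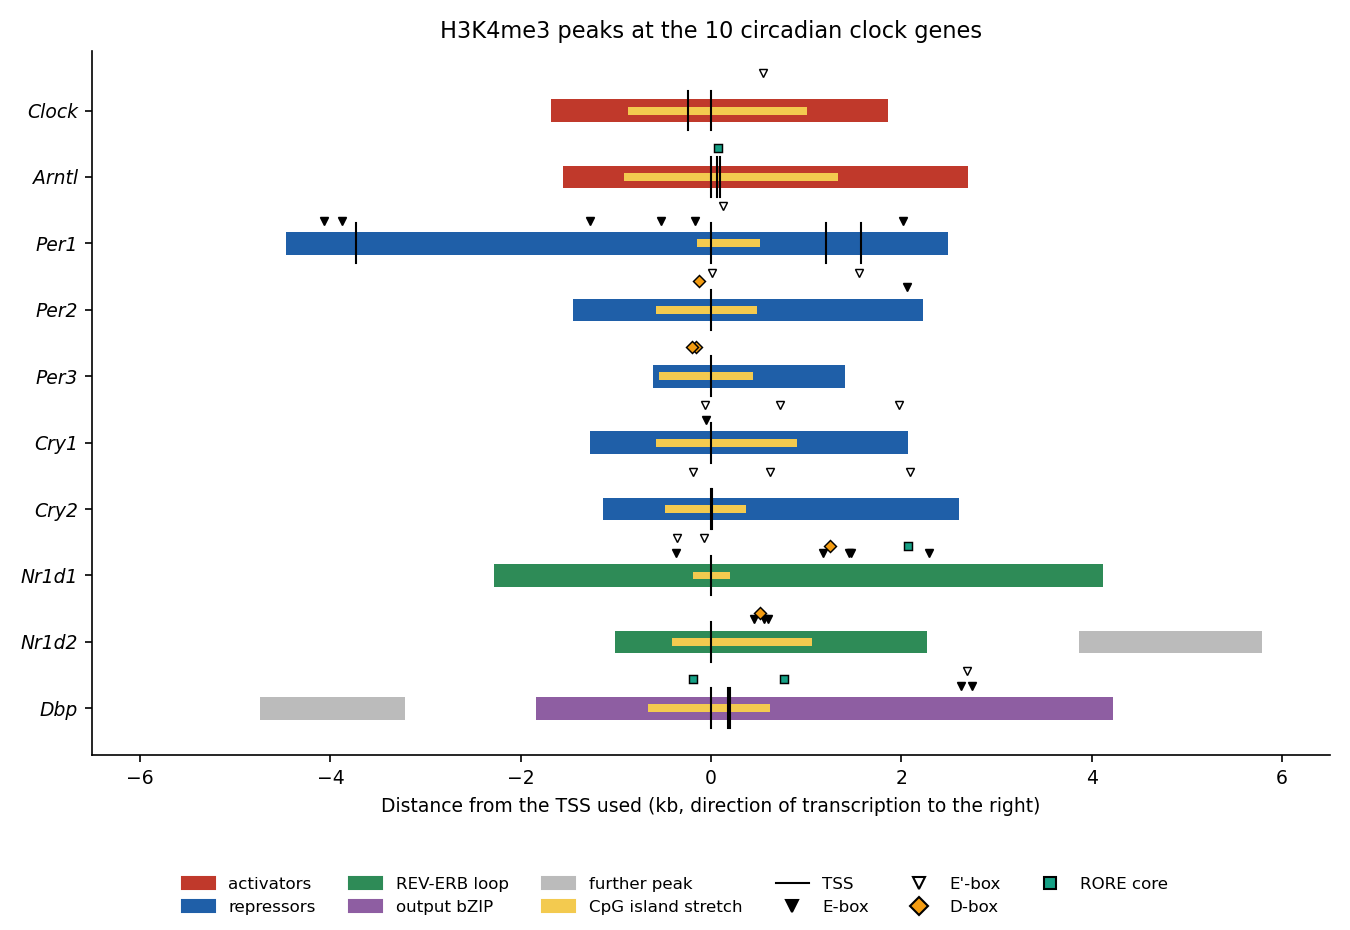
The promoter peak of each clock gene is drawn to scale along the distance from the TSS used (x axis, kb, transcription to the right), coloured by role, with further peaks in grey, the CpG island stretch at the TSS in yellow, TSSs with a peak as vertical lines and motifs as symbols above the bar. The peaks of Per1, Nr1d1 and Dbp are the longest, at 6958, 6407 and 6060 bp, and that of Per3 is the shortest, at 2016 bp.

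Peaks at clock genes were 2016 to 6958 bp wide, with a median of 3708.5 bp. Over the 10747 protein-coding genes with a peak, the median was 3254 bp and the quartiles were 2410.5 and 4258 bp. Of the clock genes, 9 lay above that median and 1 below it, and 3 lay above the upper quartile. The plot of widths shows that those 3, Per1, Nr1d1 and Dbp, stood apart, with a gap between Dbp and the next gene, Arntl, while the other 6 above the median lay in the middle of the distribution. Chromatin had been sheared to fragments of 0.5 to 1 kb, which limits how sharply an edge is placed. The differences among Cry2, Per2, Clock, Cry1 and Nr1d2 were no larger than that (the largest was 457 bp), and no order is read from them. These genes also lay above the median of all genes by less than 0.5 kb, and Arntl by less than 1 kb. The count of 9 above the median is therefore not read as wider peaks at clock genes.

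**Figure D2:**
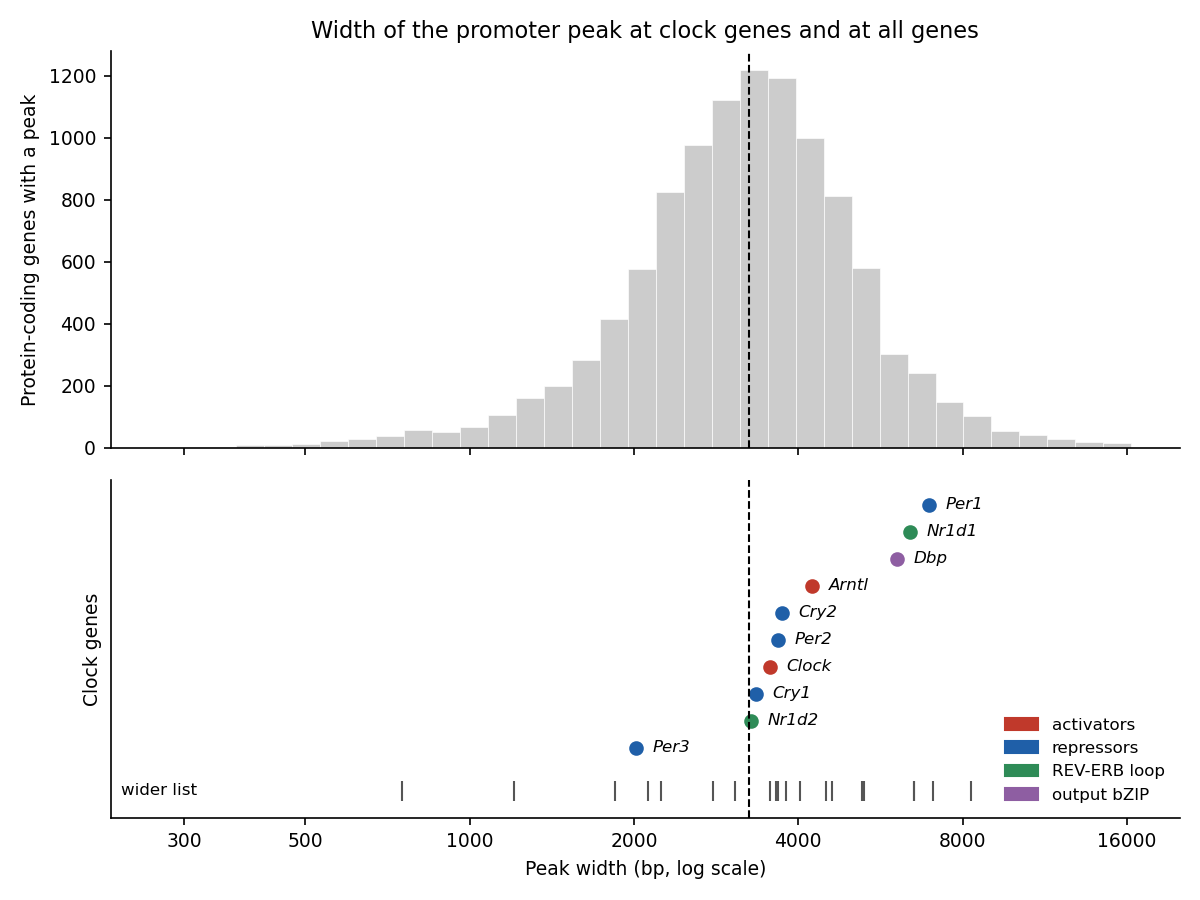
Above, the number of protein-coding genes with a peak (y axis) by the width of the peak in bp (x axis, log scale), with the median of 3254 bp as a dashed line. Below, the 10 clock genes ordered by width and coloured by role, and the 20 genes of the wider list with a peak as ticks; only Per3 of the 10 lies to the left of the line.

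Both genes of the activating arm were marked at their main promoter. Clock, which encodes the bHLH-PAS partner of BMAL1 (chromosome 5, minus strand), had a peak of 3545 bp at chr5:76302684-76306228, wider than 58.5% of the peaks at protein-coding genes. Its peak reached 1680 bp upstream and 1864 bp downstream of the TSS, the most even sides of the 10. The promoter was also the only one with a TSS of the opposite strand within 2 kb, that of the antisense RNA Gm7467 at position -328 (positions are counted from the TSS used, at 0), so the upstream side of Clock held a TSS of another gene. Arntl (chromosome 7, plus strand) had a peak of 4248 bp at chr7:113205913-113210160, wider than 74.8%, which reached 1552 bp upstream and 2695 bp downstream. The widths of the pair differed by less than the longest fragments of 1 kb, so no order is read from them. The Arntl peak ended in intron 1 of 20 exons, far short of the start codon at position 73198. In neither gene did the promoter peak hold an E-box, and the peak of Arntl held a single RORE core, at position 76 in exon 1.

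The Per genes encode the PERIOD proteins of the repressing arm, and they held the widest and the narrowest peak of the 10. Per1 (chromosome 11, plus strand) had a peak of 6958 bp at chr11:69094477-69101434, wider than 95.7%. The annotation places TSSs of Per1 at positions -3731, 0, 1210 and 1574, which form 3 promoters, and the single peak ran over all of them. Per2 (chromosome 1, minus strand), with 1 annotated TSS, had a peak of 3678 bp at chr1:91457094-91460771, wider than 62.0%. Per3 (chromosome 4, minus strand), also with 1 TSS, had 2016 bp at chr4:151043263-151045278, wider than 15.0%, and lies within the annotated span of Camta1, a transcription factor gene of the same strand. The 3 paralogues thus differed by 3280 bp between Per1 and Per2 and by 1662 bp between Per2 and Per3, both more than the fragment length. Per1 was the only one with several promoters under its peak, and how much of its width belongs to each of them cannot be told apart in a merged list.

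The cryptochromes Cry1 and Cry2, the other repressors of CLOCK and BMAL1, were alike in width. Cry1 (chromosome 10, minus strand) had a peak of 3351 bp at chr10:85182990-85186340, wider than 53.0%, and Cry2 (chromosome 2, minus strand) had 3739 bp at chr2:92431440-92435178, wider than 63.6%. They differed by 388 bp, less than the fragment length. Both peaks ended in intron 1 and held the start codon, at position 593 in Cry1 and 20 in Cry2. Each held 3 E'-boxes, and Cry1 had 1 E-box besides, at position -50, next to the E'-box at position -69. This pair is visible near the 3′ end of the Cry1 sequence above.

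In the REV-ERB loop the paralogues differed. Nr1d1 (REV-ERBα; chromosome 11, minus strand) had a peak of 6407 bp at chr11:98771212-98777618, wider than 94.0%, whereas Nr1d2 (REV-ERBβ; chromosome 14, minus strand) had 3282 bp at chr14:18236860-18240141, wider than 50.9%. The difference of 3125 bp lay on both sides of the TSS. Nr1d1 reached 2285 bp upstream and 4121 bp downstream, and Nr1d2 reached 1014 and 2267 bp. Nr1d1 is a short gene of 7402 bp, and its peak ran over 55.7% of it, ending in exon 4 of 8. In Nr1d2, of 35074 bp, the promoter peak covered 6.47% of the gene and ended in intron 1.

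Dbp, the D-box activator of the clock output (chromosome 7, plus strand), had a peak of 6060 bp at chr7:45703247-45709306, wider than 92.9%. The gene is only 5116 bp long, and the peak covered 82.5% of it, including 3 of its 4 exons and the introns between them. Among all genes with a peak, the downstream side reached at least 80% of the gene length in 5.40% and at least 50% in 10.3%, and the median width at genes under 10 kb was 3377 bp. Upstream, the peak overlapped 1436 bases at the 3′ end of Car11, a carbonic anhydrase-related gene of the same strand. The comprehensive annotation, which holds more transcripts than the basic one used here, also places a TSS of Car11 inside the Dbp peak. How much of the peak's width belongs to each gene cannot be told apart. A separate peak of 1521 bp lay 1377 bp further upstream, within Car11.

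At 9 of 10 clock genes the peak reached further downstream of the TSS than upstream, where 82.3% of all genes with a peak did. At Clock the sides differed by only 184 bp, less than the fragment length. At Per2, Per3 and Cry1 they differed by 783 to 798 bp, less than the longest fragments of 1 kb. Leaving out Clock, whose promoter is divergent, the count was 8 of 9, beside 91.7% of genes without a TSS of the other strand within 2 kb. The share was thus close to that of all genes. The exception was Per1, with 4471 bp upstream and 2486 bp downstream of the TSS of its best supported transcript. Measured from the upstream promoter at position -3731 instead, the same peak had 740 bp upstream and 6217 bp downstream, so the direction at Per1 rests on the TSS chosen. The downstream sides of Dbp, 4218 bp, and Nr1d1, 4121 bp, were the longest of the 10, and those of the other 8 lay between 1402 bp at Per3 and 2695 bp at Arntl, around the median of 2112 bp over all genes.

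**Figure D3:**
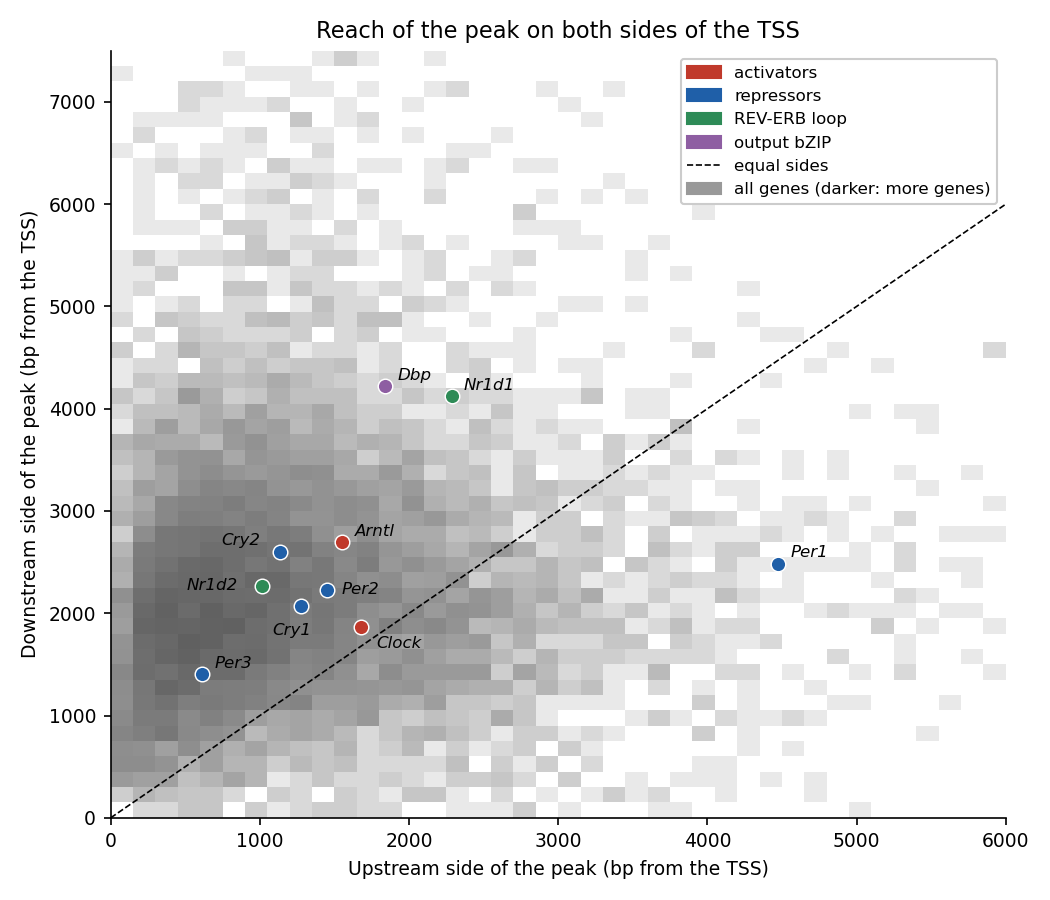
Each clock gene is placed by the reach of its peak upstream (x axis, bp) and downstream (y axis, bp) of the TSS, over the density of all protein-coding genes with a peak in bins of 150 bp (grey, darker for more genes, genes beyond the axes not drawn), with equal sides as a dashed line. Per1 is the only clock gene below the line, and Dbp and Nr1d1 lie highest.

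Over all genes with a peak, CpG count was only weakly related to width, and 3 clock genes combined low counts with wide peaks. The 3 genes with the widest peaks had the fewest CpG dinucleotides within 250 bp of the TSS, with 21 at Nr1d1, 26 at Per1 and 29 at Dbp. The other members had between 42, at Nr1d2, and 74, at Clock, and the median over all genes with a peak was 41. In the 2780 genes up to the lower quartile of the count (at most 30 CpGs), the median width was 2848.5 bp, and in the 2848 genes from the upper quartile on (at least 52) it was 3710 bp. Per1, Nr1d1 and Dbp were thus wider than 95.4%, 93.2% and 92.2% of the genes with at most 30 CpGs. Across the 10 genes, Spearman's rho of CpG count and width was -0.68 (Pearson's r was -0.83), against 0.22 (r was 0.14) across all 10747 genes. Without the 3 widest peaks it was -0.11 (7 genes), so the relation rested on them. These points share 1 peak list, and the correlations are given as descriptions.

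**Figure D4:**
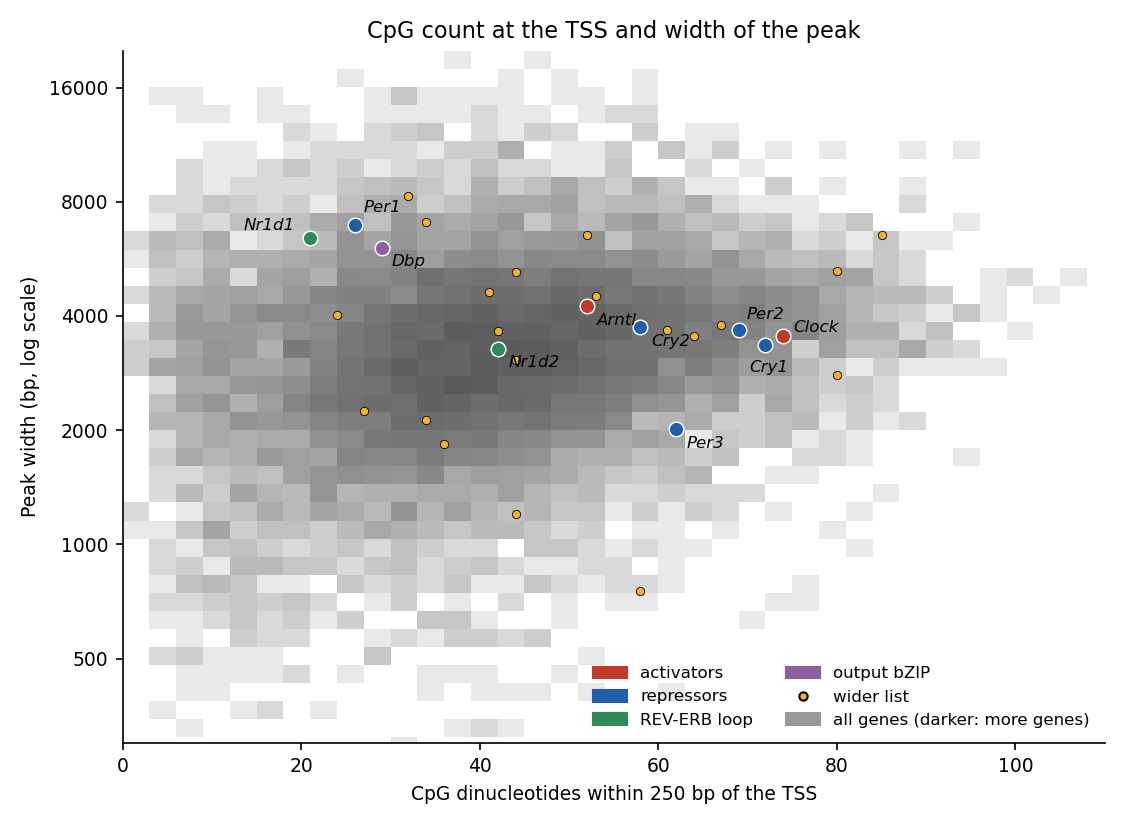
Peak width (y axis, bp, log scale) is plotted against the number of CpG dinucleotides within 250 bp of the TSS (x axis) for the clock genes, coloured by role, and for the 20 genes of the wider list with a peak (small yellow points), over the density of all genes with a peak (grey). Nr1d1, Per1 and Dbp lie at the upper left, and the other 7 between 42 and 74 CpGs at widths of 2016 to 4248 bp.

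CpG islands, stretches with many CpGs that most often escape DNA methylation, were found here from the sequence alone. A stretch lay at the TSS of all 10 genes, beside 95.6% of all genes with a peak, and the peak covered it whole in 10 of 10, beside 89.1% of the genes with a stretch, so both counts were close to those of all genes. The stretches were shortest at Nr1d1, 396 bp, and Per1, 667 bp, and longest at Arntl, 2248 bp, around a median of 1019 bp over all genes. Downstream, the peak ran past the end of the stretch by 3917 bp at Nr1d1, 3601 bp at Dbp, 2241 bp at Cry2 and 1967 bp at Per1, and by 851 to 1745 bp at the other 6, while the median over all genes was 1463 bp. Upstream, Per1 stood out with 4324 bp past the stretch, beside 71 bp at Per3, where the edges of peak and stretch almost coincided. These distances concern only the stretch at the TSS used, and some peaks overlapped further stretches. Counting all of them, the peak overlapped 5 stretches at Per1, 4 at Dbp, 3 at Nr1d1, 2 each at Cry1 and Cry2, and 1 at each other gene. Whether these stretches were free of methylation was not examined here.

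The clock genes had 21 annotated TSSs, which formed 14 promoters when TSSs within 500 bp of each other were joined. Of the 14 promoters, 12 came within 250 bp of a peak and 2 did not. With the comprehensive annotation in place of the basic one it was 11 of 26 without a peak, in 7 genes, so this count depends on which transcripts are accepted. In the basic annotation, both were internal promoters, that of Clock at position 30536 and that of Arntl at position 27158, which had 7 and 2 CpGs within 250 bp and lay 28672 and 7104 bp from the nearest peak. They were CpG-poor, in contrast to the marked promoters of the same genes with 74 and 52. Of the 3 clock genes with several promoters, 2 thus had one without a peak, as did 64.0% of all such genes with a peak. The third was Per1, whose promoters had 26 CpGs or fewer and were nevertheless all covered.

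Further peaks inside a clock gene, at no annotated coding or lncRNA TSS, were found in 2 of 10 genes, Arntl and Nr1d2, beside 8.54% of all genes with a peak. In Arntl, 2 such peaks lay in intron 2. They were 927 bp (position 34262 to 35188) and 1869 bp wide (position 51665 to 53533), held no CpG island stretch, and had 16.2 and 16.1 CpGs per kb, where the promoter peak had 44.7. The nearest TSS to the first was a transcript of Arntl itself, 1973 bp away, which is in the comprehensive but not the basic annotation. In Nr1d2, the peak was 1922 bp wide (position 3869 to 5790) and lay in intron 1, separated from the promoter peak by 1601 bp. It held 8 CpGs in all and 41.0% GC, whereas the promoter peak held 161 CpGs and 53.0% GC. The plot of gene bodies shows these peaks between the annotated exons.

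Around Nr1d1, the further peaks lay outside the gene. Upstream, 3 peaks of 1995, 2009 and 2176 bp stood between Nr1d1 and its neighbour Msl1, from position -9208 to -7214, -11851 to -9843 and -15158 to -12983, at no annotated TSS. Of all genes with a peak, 0.549% had 3 or more peaks at no TSS within 20 kb of theirs. Among the clock genes Nr1d1 was the only one, and 4 of 10 had at least 1, beside 13.9% of all genes. These counts use the basic annotation. The peak counted at Dbp covers a TSS of Car11 found only in the comprehensive annotation, and that at Per1 lies 582 bp from a TSS of Hes7. The 3 peaks upstream of Nr1d1 held 24.6, 20.4 and 24.4 CpGs per kb, close to the 24.2 of the Nr1d1 peak itself. A further peak at no TSS, of 2552 bp, lay on the other side of Nr1d1, from position 22577 to 25128, within the neighbouring gene Thra and beyond the 20 kb counted here. Only the first of the 3 upstream peaks lies nearer to Nr1d1, since the other two are 8332 and 5025 bp from the TSS of Msl1.

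**Figure D5:**
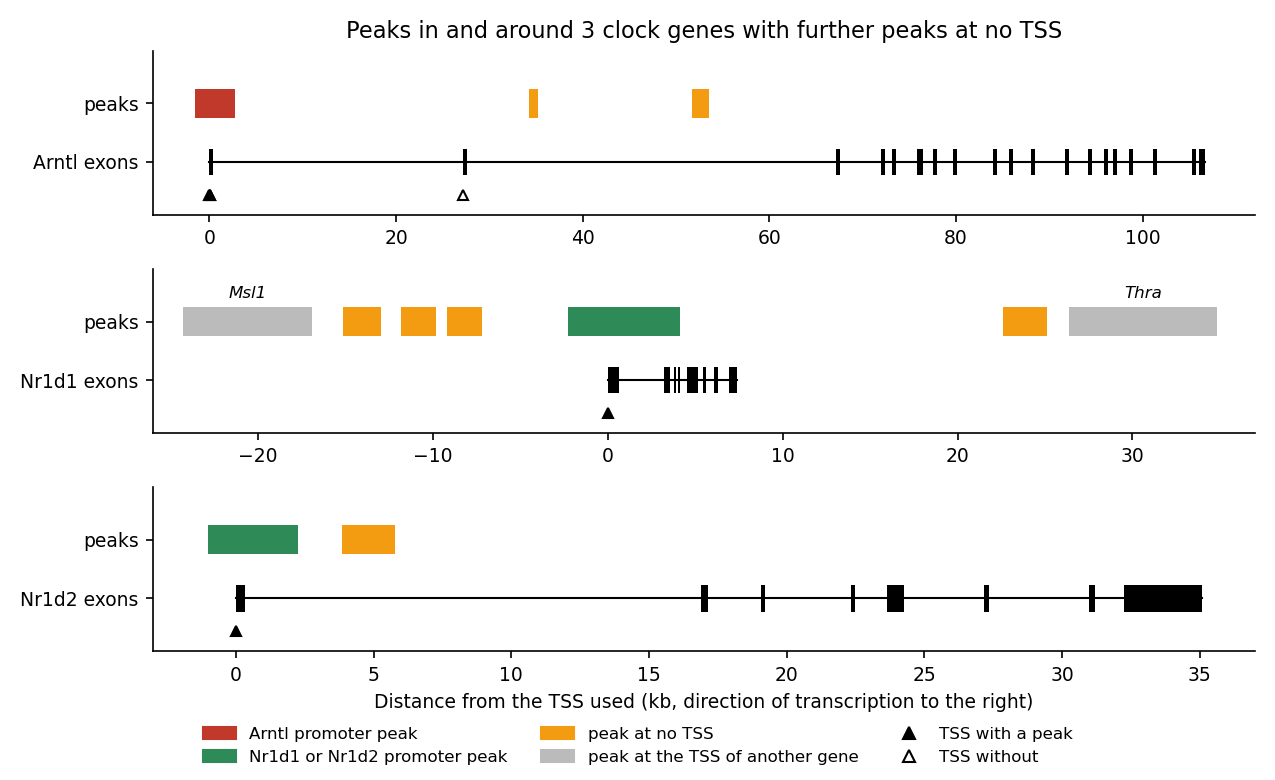
Peaks (upper bars) and exons (lower bars, black) are drawn to scale along the distance from the TSS used (x axis, kb, its scale differing between the panels) for Arntl, Nr1d1 and Nr1d2, with the promoter peak in the colour of the role, peaks at no TSS in orange and peaks at other genes in grey. Triangles mark TSSs of the gene, filled where a peak lies at them; the internal TSS of Arntl at position 27158 is open.

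The motifs of the clock were then counted on both strands in the 300 bp from 250 bp before to 50 bp after the TSS. An E-box was present in 2 of 10 promoters (Per1 at position -165 and Cry1 at -50), and in 7.84% of all 21755 promoters. An E'-box was present in 4 (Cry1 at -69, Cry2 at -192, Nr1d1 at -72 and Per2 at 5, the last just past the TSS), and in 4.80% of all. A total of 5 genes held one or the other, beside 12.2% of all promoters. D-boxes were found in 2 (Per2 at -125, Per3 at -205 and -158), beside 0.887%, a RORE core in 1 (Dbp at -189), beside 2.42%, and a CRE (TGACGTCA) in 0, beside 2.56%. Among promoters with a peak, as all 10 of these are, the shares were 10.5% for an E-box, 5.71% for an E'-box and 15.7% for either. They were 0.456% for a D-box, 1.67% for a RORE core and 3.83% for a CRE. All of these are matches to letters, and no binding was measured in these samples.

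The whole peaks were searched as well. The 10 peaks held 18 E-boxes in all, 0.416 per kb, where the peaks of all genes held 0.189 per kb and those wider than the upper quartile 0.182. The 3 widest peaks, of Per1, Nr1d1 and Dbp, carried 13 of them, 0.669 per kb, and the other 7 peaks held 5, 0.210 per kb, close to the value of all genes. The promoters of 300 bp held 11.1% of the 18 in 6.93% of the length of the peaks. In introns lay 11 (introns made up 46.6% of the length), upstream of the TSS used lay 7 (40.0%), and in exons 0 (13.4%). Per1 had 6, of which those at positions -4065 and -3881 lay just upstream of its first TSS, those at -1274, -528 and -165 before the TSS used, and that at 2015 in intron 2. Nr1d1 had 5, at position -367 and at 1174, 1454, 1469 and 2290 in intron 1. Among the 2686 genes with a peak wider than the upper quartile, 1.23% had 5 or more and 0.521% had 6 or more, so few wide peaks had as many.

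Nr1d2 held 3 E-boxes in intron 1, at 449, 552 and 597, with a D-box at 517 among them. Of the 8061 genes with a peak up to the upper quartile in width, where Nr1d2 belongs, 2.53% had 3 or more. Dbp held 2, at 2624 and 2737 in intron 2, with an E'-box between them at 2686, and at least 2 were found at 27.2% of the genes with a peak above the upper quartile. Per2 held 1, at 2062 in intron 1, and Cry1 the 1 of its promoter. In Clock, Arntl, Per3 and Cry2, 4 genes, the peak held 0 E-boxes, as did 55.0% of the peaks at all genes. The REV-ERB genes and Per1 had the most per kb, at 0.914 in Nr1d2, 0.862 in Per1 and 0.780 in Nr1d1. The motifs in introns of Nr1d1, Nr1d2 and Dbp lay under the peak by construction, since only the peaks were searched there.

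In a wider list of 23 further clock genes, 20 had a peak and 3 did not. The shares given above were 49.4% of all protein-coding genes and 81.1% of those with a CpG-rich TSS. Those without included Npas2, the CLOCK paralogue, and Hlf, a PAR bZIP factor. Npas2 and Hlf had 54 and 48 CpGs around the TSS and lay 172696 and 26855 bp from the nearest peak, so these CpG-rich promoters were unmarked. Both had a relative with a peak. In the activating arm, Arntl2 had one of 2242 bp beside those of Clock and Arntl, and in the PAR bZIP family Tef had one of 4502 bp beside that of Dbp.

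The median width of the wider list was 3734 bp, with 8 of 20 above the upper quartile of all genes. The widest was that of Bhlhe40 (DEC1, a repressor at E-boxes), at 8274 bp, which covered 86.8% of its transcript. Its paralogue Bhlhe41 (DEC2) and Nfil3 (E4BP4, which competes with DBP at D-boxes) both had 6525 bp. The kinases and ubiquitin enzymes of the list, which act on PER, CRY and other clock proteins, all had a peak, 8 of 8. The same 49.4% of all genes and 81.1% of those with a CpG-rich TSS stand beside this count. Their widths ran from 753 bp at Usp2 and 1205 bp at Fbxl21 to 7069 bp at Gsk3b. The PER kinases Csnk1d and Csnk1e had 5224 and 5269 bp. Downstream was the longer side at 14 of 20, beside the 82.3% of all genes. Of 11 genes of the wider list with several promoters and a peak, 8 had a promoter without one, beside the 64.0% of all genes, and Usp2 was marked at its internal promoter alone, the 2 promoters upstream of it being without a peak.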

How the data were processed

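ChIP-seq of H3K4me3 in C127 cells was analysed from 1 deposited peak list of 3 replicates. According to the study's methods, the authors aligned reads to mm10 with bowtie2, discarded reads without a unique position, removed PCR duplicates with SAMtools, called peaks with MACS per replicate against a matched control, required overlap in every replicate and joined peaks within 250 bp. The same tools and build stand in the submitters' processing notes, with MACS2 for MACS and no version numbers. The list gives chromosome, start and end in bp, so replicates and heights could not be compared and depth is unknown. Samples were grouped by the labels.

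Starts were converted to 1-based positions, and 13447 peaks lay on the 20 chromosomes used. TSSs of coding and lncRNA genes came from the basic set of GENCODE vM21. For each gene, the widest peak within 250 bp of a TSS was taken, with the TSS of its best supported transcript (APPRIS principal, then transcript support level, then the most upstream). The share of genes with a narrower peak gave the percentile. A divergent promoter had a TSS of the other strand within 2 kb. CpGs were counted within 250 bp of the TSS, and island stretches were joined windows of 200 bp in which GC made up 0.5 or more of the bases and the CpG ratio (observed to expected) reached 0.6. Sequences were read from the RefSeq GRCm38.p6 genome. No test was run. Alternatives concerned the TSS distance, the TSS used, the annotation, and the merging and size of peaks. Scripts were tested on simulated data and used Python 3.11.15, numpy 2.4.6, pandas 2.3.3, pysam 0.24.0 and matplotlib 3.10.9.

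The 10 clock genes, the wider list of 23 the motifs and the markers of cell type were chosen with earlier results of these data known. All 10 clock genes are named, and from the wider list genes without a peak and those with the widest and the narrowest, except 1 result that is not reported here; Csnk1d, Csnk1e, Tef, Arntl2 and the neighbouring genes were named after their values were seen.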

Additional observations from a re-analysis of the deposited data

How the results depend on the processing

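Of 16 alternatives, 15 gave the same value or a count within 1.5 times. A peak was found at 10 of 10 genes with a TSS distance of 0 or 1000 bp, 1 TSS per gene, RefSeq TSSs, peaks of at least 1000 bp or an overlap of at least 200 bp, and the median width stayed at 3708.5 bp in each of its 3 alternatives. The downstream side was longer at 8 to 10 genes. The number of promoters without a peak rose from 2 of 14 to 11 of 26 with the comprehensive annotation, which adds transcripts of lower support; the 11 lay in 7 genes, and Per1, Cry2 and Dbp had none. Edges cannot be placed more finely than the fragments of 0.5 to 1 kb allow. No paired analysis was possible because no test was run and the list holds no values per replicate; for the same reason no replicate could be left out.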
